A study of Mus musculus with 8 samples.

Results

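The 9 genes described here encode cohesin, the ring that holds sister chromatids together and forms chromatin loops, with its loader, its PDS5 cofactors and the boundary protein CTCF. They were taken by name: Stag1, Stag2, Smc1a, Smc3, Rad21, Nipbl, Pds5a, Pds5b and Ctcf. All 9 were found among the 12260 genes listed, and all 9 passed the filter on low counts that left 11934 genes for testing. Each listed gene has a count in every library, so shares of listed genes are not shares of all mouse genes. RNA was sequenced from MBL2 cells, a line of Moloney MuLV-induced T-cell lymphoma from the C57BL/6 mouse strain, 24 h after a single dose of drug. The 4 groups held 2 libraries each: the combination of talazoparib and romidepsin, talazoparib alone, romidepsin alone, and untreated control cells. Talazoparib blocks PARP1 and PARP2, enzymes that sense DNA breaks, and traps them on DNA; romidepsin blocks class I histone deacetylases. All groups are the same line, the sources used here give no doses, and the labels do not call the libraries of a group independent cultures. The p-values therefore measure only the spread between these libraries, which may be technical.

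Stag1 was chosen by its fall in the combination against control. Its levels and its log2 fold changes in comparisons that use the combination or the control libraries are therefore a description and carry no test. Only talazoparib against romidepsin compares libraries that played no part in that choice, and there Stag1 was tested like the other genes. The spread in that test was still estimated over all 8 libraries, control and combination included. The other 8 genes belong to the list by their known roles.

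In vertebrate cells the cohesin ring is built from SMC1A, SMC3 and the kleisin RAD21, and each ring carries either STAG1 or STAG2. NIPBL loads the ring on DNA and drives loop extrusion, PDS5A and PDS5B bind the ring and take part both in its release and in its maintenance, and CTCF stops extruding rings at its binding sites, which gives loops their anchors. In T cells, cohesin and CTCF are known for folding the antigen receptor loci, and STAG2 is a recurrent mutation target in human cancers.

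Promoter sequence was available for 6 of the 9 genes, as windows of 300 bases from 250 before to 50 after a start site (RefSeq, GRCm38.p6). Of these, 4 are shown, written 5′ to 3′ in the direction of the gene. Stag1, Smc3 and Ctcf are shown because their levels followed each other most closely over the 8 libraries, and Smc1a because it ran level across the 4 groups; the capitals mark a match to the YY1 motif GCCATNTT on either strand. The Stag1 window is chr9:100643198-100643497 on the plus strand, and the windows of Smc3, Ctcf and Smc1a are chr19:53600146-53600445, chr8:105636288-105636587 and chrX:152016178-152016477, all on the plus strand.
Stag1: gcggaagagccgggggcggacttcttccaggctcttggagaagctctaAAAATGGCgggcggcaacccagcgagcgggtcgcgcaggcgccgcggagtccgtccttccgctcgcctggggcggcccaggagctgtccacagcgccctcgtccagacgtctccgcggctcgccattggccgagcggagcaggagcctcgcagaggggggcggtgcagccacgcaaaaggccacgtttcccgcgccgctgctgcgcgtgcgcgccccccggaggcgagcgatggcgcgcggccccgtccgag
Smc3: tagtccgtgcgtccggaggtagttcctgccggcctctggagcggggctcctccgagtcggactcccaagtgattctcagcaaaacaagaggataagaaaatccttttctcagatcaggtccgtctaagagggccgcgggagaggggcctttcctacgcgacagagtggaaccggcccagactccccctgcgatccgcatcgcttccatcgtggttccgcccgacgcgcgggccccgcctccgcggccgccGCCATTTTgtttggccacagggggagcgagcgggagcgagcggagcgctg
Ctcf: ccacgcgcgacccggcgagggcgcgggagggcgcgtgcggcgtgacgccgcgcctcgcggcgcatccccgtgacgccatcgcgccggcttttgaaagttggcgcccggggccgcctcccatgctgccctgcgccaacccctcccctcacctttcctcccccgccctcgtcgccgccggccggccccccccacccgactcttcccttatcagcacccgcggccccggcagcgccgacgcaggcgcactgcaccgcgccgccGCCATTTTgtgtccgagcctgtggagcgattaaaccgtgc
Smc1a: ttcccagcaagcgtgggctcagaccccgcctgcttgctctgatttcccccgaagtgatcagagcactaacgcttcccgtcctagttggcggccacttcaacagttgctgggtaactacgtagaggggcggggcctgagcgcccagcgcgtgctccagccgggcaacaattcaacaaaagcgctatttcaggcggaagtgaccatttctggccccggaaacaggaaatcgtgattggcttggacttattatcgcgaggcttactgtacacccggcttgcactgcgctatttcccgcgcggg

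The YY1 motif was found in 4 of the 6 windows, those of Stag1, Smc3, Pds5b and Ctcf, and not in those of Smc1a and Pds5a. It began 202 bases before the start in Stag1, at the start itself in Smc3, 37 bases before it in Pds5b and 10 bases after it in Ctcf. The same motif was in 6.05% of 32851 promoter windows of that length and in 8.63% of the 11659 windows of tested genes. Among the windows not shown, that of Pds5a, which fell with the combination against control, lacks the YY1 motif. That of Pds5b, which was not called there, has it. A link between motif and level was not tested. The GC box GGGCGG was in all 6 windows, against 61.9% of the windows of tested genes. The E2F motif, searched as TTTCCCGC or TTTGGCGC, was in those of Stag1, Smc1a and Pds5a, against 2.98%. The CCAAT box CCAAT was in 3 windows (Stag1, Smc1a, Pds5b) against 37.9%, and the NRF1 motif in 2 (Stag1, Pds5b) against 10.2%. The ETS motif CCGGAAG and the E-box CACGTG were in none of the 6 windows, against 18.2% and 10.1% of the windows of tested genes. All motifs were searched on both strands, no match overlapped that of another motif, and a match is a description of the letters only. The 6 windows held 58.3% to 80.3% G and C, above the median of 52.7% for all windows, and 5 of them lay above 60.7%, the median for tested genes. The Stag1 window lies 45.6 kb downstream of the start of the gene model in the annotation (GENCODE, GRCm38), which begins at an earlier exon.

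Per length, Rad21 was the most abundant of the 9 transcripts and Stag1 the least abundant in every group. In control cells Rad21 averaged 144 ± 9.82 FPKM (SD, n = 2), higher than 95.7% of all listed genes, and Stag1 9.50 ± 1.25 FPKM, higher than 47.3%. FPKM, the authors' deposited values, scale fragments to transcript length and library size, and they are used here to compare levels between genes, for shares, sums and ratios of 2 genes, and in the limma alternatives. Between these ends the control order ran Smc1a (59.9 FPKM), Pds5a (48.0), Ctcf (36.4), Stag2 (33.6), Nipbl (29.4), Smc3 (24.2) and Pds5b (15.7), and in control no neighbours in that order overlapped. In the combination libraries Ctcf averaged 25.4 FPKM and stood sixth, behind Stag2 and Nipbl. There Pds5a, Stag2, Nipbl and Ctcf followed each other in that order, and each overlapped the next. With talazoparib alone Ctcf stood sixth as well, at 26.0 FPKM, below both libraries of Stag2 and of Nipbl, which overlapped each other. With romidepsin the order was that of control, again with no overlap between neighbours. Stag1 averaged 3.94 ± 0.383 FPKM in the combination, 5.05 ± 0.634 with talazoparib and 7.51 ± 0.529 with romidepsin (SD, n = 2 each).

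**Figure D1:**
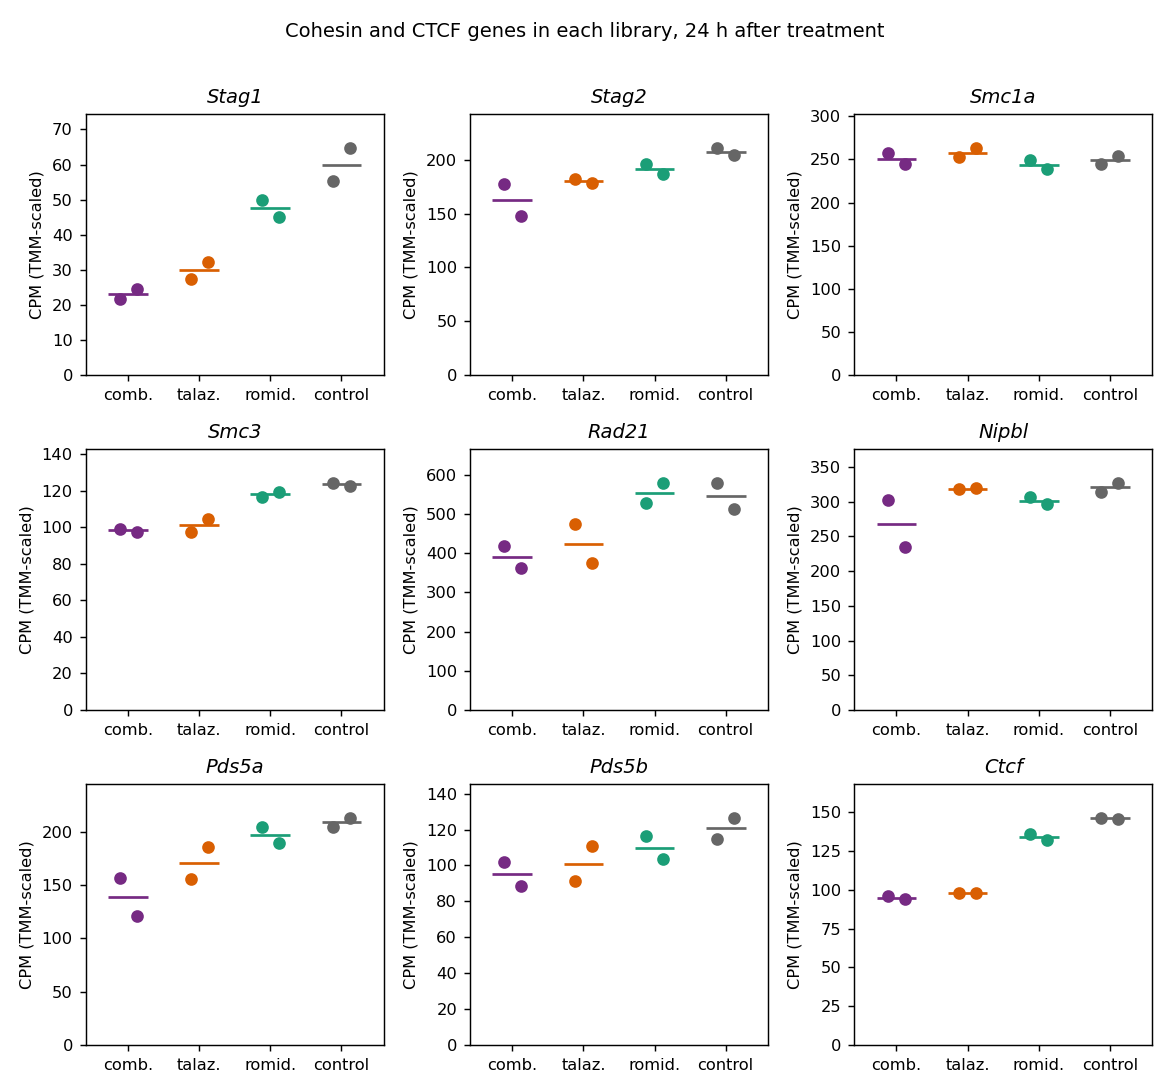
Level of each gene in CPM (scaled with TMM factors, vertical axes from 0) in the 2 libraries of each group (points) with their mean (line). In Stag1, Stag2, Smc3, Rad21, Pds5a and Ctcf every talazoparib-treated library, with or without romidepsin, lies below every other library. The same holds for 15.8% of all tested genes, and Stag1 was chosen by its fall in the combination against control. Smc1a runs level across the 4 groups, at 239 to 263 CPM.

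STAG1 and STAG2 are the alternative large subunits that attach to the kleisin and mark separate kinds of cohesin ring. Stag1 (gene ID 20842, chr9:100597798-100959375, plus strand, GRCm38) had 21.6 and 24.7 CPM in combination libraries, 27.5 and 32.4 with talazoparib, 49.97 and 45.2 with romidepsin, and 55.2 and 64.7 in control. CPM, counts put on one library size, are used here for values within a gene. The groups of Stag1 did not overlap, and their order was combination, talazoparib, romidepsin, control from low to high. The log2 fold change that put Stag1 in the list was −1.37 for the combination against control, or 2.59-fold lower. It was −1.003 for talazoparib and −0.33 for romidepsin against control, −1.04 for the combination against romidepsin and −0.37 for the combination against talazoparib. In the one comparison with a test, Stag1 was lower with talazoparib than with romidepsin by 0.67 on the log2 scale, that is a log2 fold change of −0.67 with an SE of 0.131 (adjusted p = 0.0242, edgeR quasi-likelihood test, Benjamini-Hochberg over all tested genes). Without either romidepsin library that call was lost, with adjusted p = 0.113 without romidepsin 1 and 0.0852 without romidepsin 2. It was also lost with limma on log2(FPKM + 1) (0.0605) and in the edgeR fit of these groups alone (0.0928). That last fit is the only one without any control or combination library.

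Stag2 (gene ID 20843, chrX:42149317-42277185, plus strand), on the X chromosome, moved less. It had 177 and 148 CPM in combination libraries, 182 and 178 with talazoparib, 196 and 187 with romidepsin, and 211 and 204 in control. None of the Stag2 groups overlapped, although combination 1 lay close to talazoparib 2. Stag2 fell with the combination against control, with a log2 fold change of −0.35, an SE of 0.101 and adjusted p = 0.047 (edgeR). With talazoparib alone it was at −0.20 (adjusted p = 0.217, 95% interval −0.44 to 0.03) and with romidepsin at −0.12 (adjusted p = 0.94, −0.35 to 0.11). The call in the combination was lost without control 1 (0.204), control 2 (0.144), combination 2 (0.228) or either romidepsin library (0.0663 and 0.0637).

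Of the summed Stag1 and Stag2 FPKM, Stag1 made up 10.7% and 13.9% in combination libraries, 12.8% and 15.1% with talazoparib, 19.8% and 19.1% with romidepsin, and 20.4% and 23.6% in control. The share of Stag1 was lower in all 4 talazoparib-treated libraries than in the other 4. The sum of both differed less between the groups, at 34.4 and 30.2 FPKM in combination libraries, 35.9 and 36.5 with talazoparib, 39.7 and 37.4 with romidepsin, and 42.3 and 44.0 in control. Stag1 was put in the list for its level, so these shares are values and not a test.

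**Figure D2:**
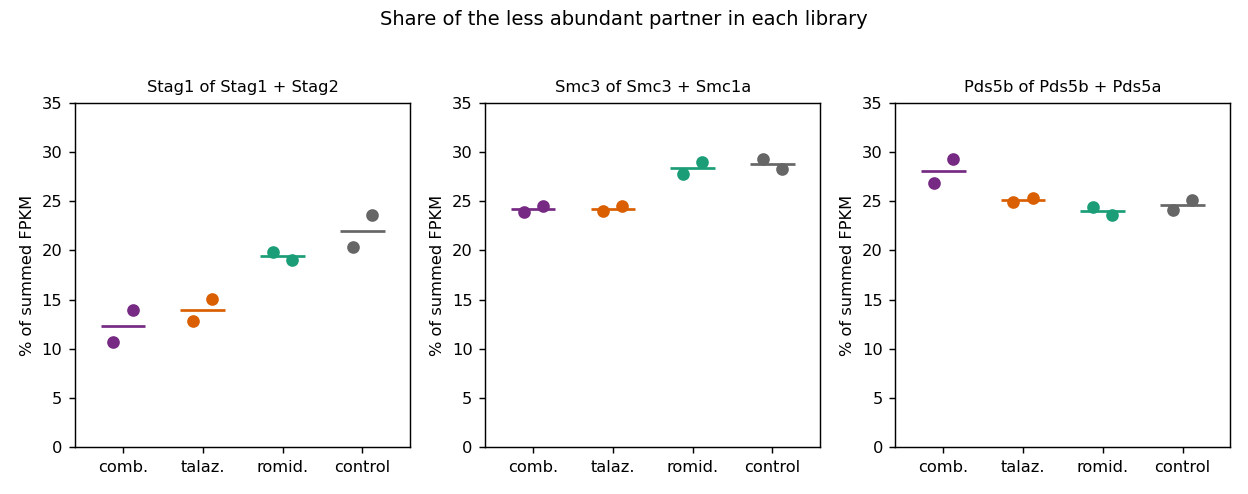
Share of the less abundant partner in the summed FPKM of 3 pairs (vertical axes in %, from 0) in each library (points) with the group mean (line). The Stag1 and Smc3 shares are lower in the 4 talazoparib-treated libraries than in the other 4; the Pds5b share is highest in the combination, at 26.9% and 29.3%.

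SMC1A and SMC3 are the long coiled-coil ATPases whose heads and hinges close the ring. Smc1a (gene ID 24061, chrX:152016428-152062694, plus strand) had 257 and 245 CPM in combination libraries, 252 and 263 with talazoparib, 249 and 239 with romidepsin, and 245 and 254 in control. All 4 groups overlapped at least 1 other group. For Smc1a the log2 fold change against control was 0.01 with the combination (adjusted p = 0.959, 95% interval −0.17 to 0.19), 0.05 with talazoparib (0.737, −0.13 to 0.23) and −0.03 with romidepsin (0.964, −0.21 to 0.15).

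Smc3 (gene ID 13006, chr19:53600398-53645833, plus strand) had 98.8 and 97.6 CPM in combination libraries, 97.3 and 105 with talazoparib, 117 and 119 with romidepsin, and 124 and 123 in control. The 4 talazoparib-treated libraries were all below the other 4, and the combination overlapped talazoparib alone. Smc3 fell with the combination against control, at a log2 fold change of −0.33 with an SE of 0.0813 (adjusted p = 0.0298, edgeR). With talazoparib alone it was −0.29 with adjusted p = 0.0569, just outside the threshold of 0.05, and DESeq2 gave 0.0402 for the same comparison. The call in the combination was lost without control 1 (0.15), control 2 (0.123), combination 1 (0.108) or combination 2 (0.133). Smc3 has a processed pseudogene, Gm29763, that matches it at 94.5% over 616 bases and is not among the listed genes, so a few of its reads could be shared.

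Within a library, the ratio of Smc3 to Smc1a in FPKM does not depend on how libraries are scaled against each other. It was 0.315 and 0.326 in combination libraries, 0.316 and 0.325 with talazoparib, 0.384 and 0.408 with romidepsin, and 0.415 and 0.395 in control. The 4 talazoparib-treated libraries agreed within 0.315 to 0.326 and lay below all of the others. The ratio was not tested.

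RAD21 is the kleisin that bridges the SMC heads and is cut when sister chromatids part. Rad21 (gene ID 19357, chr15:51962240-51991747, minus strand) had 418 and 361 CPM in combination libraries, 474 and 374 with talazoparib, 527 and 578 with romidepsin, and 579 and 511 in control. The talazoparib-treated libraries lay below the other 4, with a wide gap between the talazoparib replicates, and romidepsin overlapped control. Rad21 fell with the combination against control, at a log2 fold change of −0.48 with an SE of 0.134 (adjusted p = 0.0434), and with the combination against romidepsin, at −0.50 with an SE of 0.135 (adjusted p = 0.048, edgeR). With talazoparib alone against control it was −0.36 with adjusted p = 0.119. Without talazoparib 1, the higher of its replicates, that value was −0.54 with adjusted p = 0.0352. Both calls in the combination were lost when any one library of control, romidepsin or combination was left out, with adjusted p of 0.0614 to 0.223 against control and 0.0775 to 0.257 against romidepsin.

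NIPBL, with MAU2, is the cohesin loader. Nipbl (gene ID 71175, chr15:8290617-8444463, minus strand) had 303 and 234 CPM in combination libraries, 319 and 319 with talazoparib, 306 and 296 with romidepsin, and 314 and 327 in control. Combination 2 stood below every other library and combination 1 among the romidepsin libraries. None of the comparisons called Nipbl. Its log2 fold change against control was −0.26 with the combination (adjusted p = 0.171, 95% interval −0.53 to 0.02), −0.01 with talazoparib (0.976, −0.28 to 0.26) and −0.09 with romidepsin (0.942, −0.36 to 0.18).

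PDS5A and PDS5B are paired cofactors that help WAPL release cohesin and also protect acetylated rings. Pds5a (gene ID 71521, chr5:65605721-65698273, minus strand) had 157 and 121 CPM in combination libraries, 156 and 185 with talazoparib, 204 and 189 with romidepsin, and 205 and 213 in control. The talazoparib-treated libraries were below the other 4, and combination 2 was the lowest. Pds5a fell with the combination against control, at a log2 fold change of −0.59 with an SE of 0.137 (adjusted p = 0.0249, edgeR). Against romidepsin the combination gave −0.50 with adjusted p = 0.0517, just outside the threshold, and DESeq2 gave 0.00941. With talazoparib alone Pds5a was at −0.29 (adjusted p = 0.198). The call against control was lost without control 1 (0.104), control 2 (0.114) or combination 2 (0.129).

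Pds5b (gene ID 100710, chr5:150673739-150810690, plus strand) had 102 and 88.7 CPM in combination libraries, 91.3 and 111 with talazoparib, 117 and 103 with romidepsin, and 115 and 127 in control. Combination and control did not overlap, while talazoparib and romidepsin overlapped each other. Pds5b passed in none of the comparisons of the main edgeR fit. With the combination against control it was at a log2 fold change of −0.34 with adjusted p = 0.0989 (95% interval −0.63 to −0.05). In 2 of 17 alternatives it passed there, in the edgeR fit of the compared groups alone (0.0413) and with the transcript length trend removed (0.026). With that trend removed, a setting chosen after seeing the data, Pds5b also passed with talazoparib against control (0.0421) and over both romidepsin arms (0.0117). The share of Pds5b in the summed FPKM of both was 26.9% and 29.3% in combination libraries, 24.9% and 25.3% with talazoparib, 24.5% and 23.6% with romidepsin, and 24.1% and 25.2% in control. Only the combination libraries lay outside the range of the others.

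CTCF is the zinc-finger protein whose oriented sites anchor loops and mark domain boundaries. Ctcf (gene ID 13018, chr8:105636568-105682922, plus strand) had 96.0 and 94.1 CPM in combination libraries, 98.0 and 98.3 with talazoparib, 136 and 132 with romidepsin, and 147 and 146 in control. The replicates lay close together and none of the groups overlapped, with a gap between the 4 talazoparib-treated libraries and the other 4. Ctcf fell with the combination against control, at a log2 fold change of −0.62 with an SE of 0.078 (adjusted p = 0.00313). It fell with talazoparib alone against control at −0.58 with an SE of 0.0779 (adjusted p = 0.00564, edgeR). It fell with the combination against romidepsin as well, at −0.50 with adjusted p = 0.0105, and it was lower with talazoparib than with romidepsin, at −0.45 with adjusted p = 0.0154. Adding romidepsin to talazoparib gave −0.05 (adjusted p = 1, 95% interval −0.22 to 0.13), and romidepsin alone against control −0.13 (adjusted p = 0.94, −0.30 to 0.05). The call in the combination against control held in all 17 alternatives, with adjusted p up to 0.0366. The other Ctcf calls were lost in single omissions: talazoparib against control without control 1 (0.0588) or control 2 (0.0536), and the combination against romidepsin without either romidepsin library (0.0611 and 0.0587) or either combination library (0.0553 and 0.0844). Talazoparib against romidepsin lost its call without either romidepsin library (0.0852 and 0.0778) or without talazoparib 2 (0.0526).

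Some exons overlap genes on the opposite strand: Ctcf shares 114 bases with Agrp and 370 with the lincRNA Gm5914, Pds5a 255 with Gm42727 and 119 with Gm42729, and Stag2 28 with Gm37564. None of these is among the listed genes. The library kit marks strand, but the sources used here do not say whether the counting used it, so reads from those stretches cannot be told apart.

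**Figure D3:**
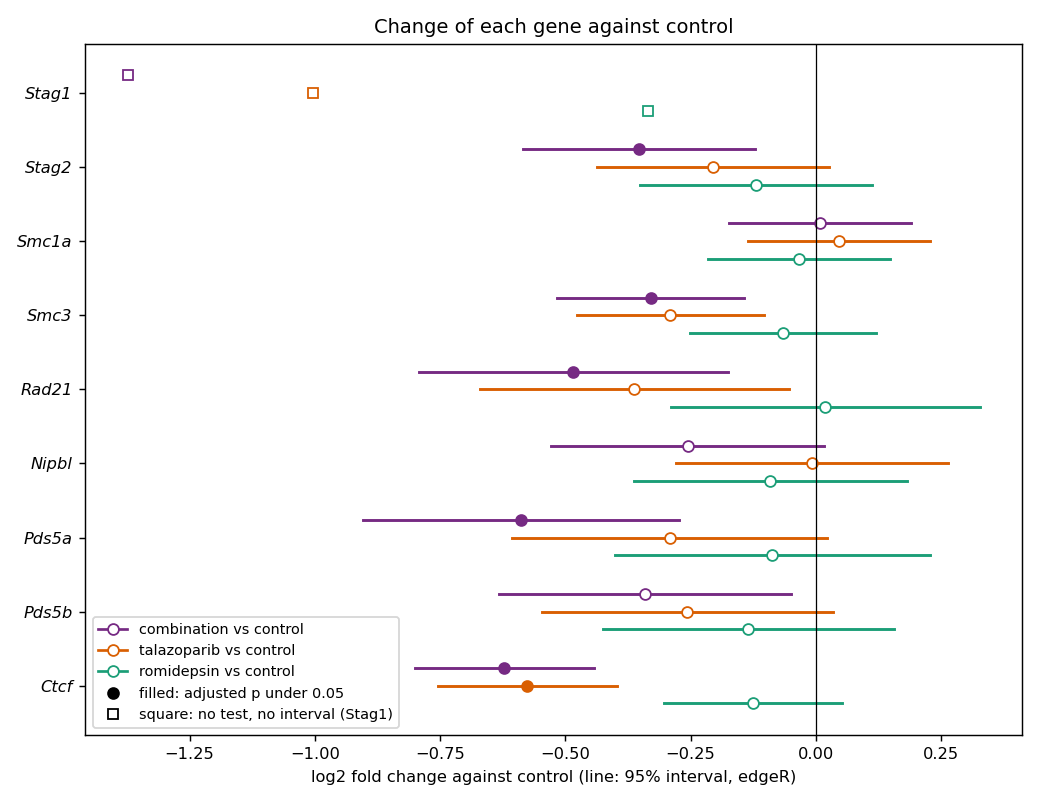
Log2 fold change of each gene against control (horizontal axis, edgeR) for the combination, talazoparib and romidepsin, with 95% intervals (lines); filled points have an adjusted p under 0.05 and squares mark Stag1, which has no test and no interval. With the combination 5 of 8 tested genes are filled, where 17.5% of all tested genes were called. With talazoparib alone only Ctcf is, beside 11.1% of all tested genes. With romidepsin none is, beside 0.0251%.

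Counted over the 8 genes other than Stag1, the combination against control called 5 as lower (Stag2, Smc3, Rad21, Pds5a and Ctcf) and none as higher. Among all tested genes 17.5% were called in that comparison, 7.28% as lower and 10.2% as higher. In 7 of these 8 genes, all but Smc1a, both combination libraries lay below both control libraries, as they did for 32.5% of all tested genes. The median log2 fold change of the 8 genes was −0.35, against 0.002 for all tested genes, and Smc1a was the one gene above 0. In the fit with upper-quartile scaling, and in limma on log2(FPKM + 1), 2 of the 8 were called, Pds5a and Ctcf. Over all 11934 tested genes, 575 and 419 were called as lower in these fits, against 869 in the main edgeR fit.

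Talazoparib alone against control called 1 of the 8 genes, Ctcf, as lower, where 11.1% of all tested genes were called, 4.64% as lower and 6.43% as higher. The median of the 8 genes was −0.27, against 0.007 for all genes, and 7 of the 8 values were below 0. Nipbl was among these by −0.01 only and stood above 0 with upper-quartile scaling (0.03).

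Romidepsin alone called none of the 8 genes, and edgeR called 3 of all genes, or 0.0251% (522 at an unadjusted p under 0.05, and 8 by DESeq2). Among the 8 genes none had an unadjusted p under 0.05, and none was called by DESeq2. The median of the 8 genes was −0.09. The same held for romidepsin added to talazoparib, with none of the 8 genes called and 0.0251% of all genes called (510 at an unadjusted p under 0.05, and 27 by DESeq2); all 8 log2 fold changes were below 0 there, with a median of −0.10, none with an unadjusted p under 0.05.

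The combination against romidepsin called 2 of the 8 genes as lower, Rad21 and Ctcf, where 11.7% of all genes were called and 4.7% were lower. Their median log2 fold change was −0.25. Talazoparib against romidepsin, the one comparison in which all 9 genes were tested, called 2 as lower, Stag1 and Ctcf, where 8.81% of all genes were called and 3.59% were lower; the median of the 9 was −0.20. These comparisons share libraries with each other and with those against control.

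Setting the 4 talazoparib-treated libraries against the other 4, as the mean of the talazoparib effect without and with romidepsin, 5 of the 8 genes fell: Stag2, Smc3, Rad21, Pds5a and Ctcf. In that comparison 30.2% of all genes were called, 13.7% as lower and 16.5% as higher. Ctcf had a log2 fold change of −0.54 with an SE of 0.0551 (adjusted p = 0.000668), and that call held in all 16 alternatives. Rad21 was at −0.43 (adjusted p = 0.0121), Pds5a at −0.40 (0.018), Smc3 at −0.28 (0.00959) and Stag2 at −0.22 (0.0492). Pds5b at −0.23 (0.0844), Nipbl at −0.09 (0.464) and Smc1a at 0.04 (0.581) did not pass. The untested value of Stag1 was −1.02. In 5 of the 8 genes, which are the 5 that were called, all 4 talazoparib-treated libraries were lower than all 4 others, as they were for 15.8% of all tested genes.

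Without control 1 the calls of Stag2 (0.148), Rad21 (0.0531) and Pds5a (0.0509) were lost in that comparison, without control 2 those of Stag2 (0.105) and Pds5a (0.0566), and without combination 2 those of Stag2 (0.137), Rad21 (0.0505) and Pds5a (0.0504). Without romidepsin 1 those of Stag2 (0.126) and Pds5a (0.0549) were lost, and Stag2 alone was lost without romidepsin 2 (0.0868), talazoparib 1 (0.0636) or talazoparib 2 (0.0898).

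Whether the log2 effects of both drugs add up was tested with the interaction term. None of the 8 genes passed (adjusted p = 0.999 for each), and their values ran from −0.21 for Pds5a (95% interval −0.65 to 0.23) to 0.08 for Ctcf (−0.17 to 0.33). Of all genes 0.0168% were called, 2 genes, with 154 at an unadjusted p under 0.05 and 7 by DESeq2. Departures from additivity within the intervals were not detectable with 2 libraries per group.

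The levels of Stag1, Smc3 and Ctcf followed each other over the 8 libraries. Pearson's r of log2 CPM was 0.961 between Stag1 and Smc3, 0.963 between Stag1 and Ctcf and 0.979 between Smc3 and Ctcf, while Smc1a had −0.29 with Stag1. These values describe 8 libraries in 4 groups, which share the group differences above. They include the combination and control libraries by whose difference Stag1 was chosen, so the r values of Stag1 are a description and no test. Among 9363 genes with a mean of at least 2 FPKM, the 5 most like Stag1 by r were Ap1m1 (0.994), a subunit of the AP-1 clathrin adaptor, Prmt7 (0.991), an arginine methyltransferase, Alyref (0.989), an mRNA export adaptor, Ubqln1 (0.987), a ubiquilin, and Psmd11 (0.986), a proteasome lid subunit. Their log2 fold changes with the combination against control were −0.56, −0.95, −0.44, −0.42 and −0.39 in that order, against −1.37 for Stag1.

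Cohesin regulators release the ring, acetylate it, protect it or open it at mitosis. Of 24 named, 19 were among the listed genes, and the germline or meiotic subunits Stag3, Smc1b, Rec8 and Rad21l and the CTCF paralog Ctcfl are not among them. With the combination against control 1 of the 19 rose and 2 fell, where 10.2% of all tested genes rose and 7.28% fell, so these counts were near the share over all genes. Their median log2 fold change was −0.08. Esco2, the acetyltransferase that acts on SMC3 during replication, had 118 and 112 CPM in combination libraries, 112 and 111 with talazoparib, 81.6 and 88.9 with romidepsin, and 86.7 and 82.2 in control. All 4 talazoparib-treated libraries were above the other 4, and Esco2 rose with the combination at a log2 fold change of 0.45 (adjusted p = 0.0139) and with talazoparib alone at 0.40 (0.0264, edgeR). Wapl, the release factor, had 170 and 152 CPM in combination libraries, 167 and 185 with talazoparib, 181 and 192 with romidepsin, and 202 and 204 in control. Wapl fell with the combination at −0.34 (adjusted p = 0.0442), and talazoparib alone overlapped romidepsin. Plk1, the mitotic kinase that primes cohesin for removal from chromosome arms, fell at −0.38 with the combination (0.0185) and −0.46 with talazoparib (0.0147). Over both romidepsin arms Esco2 rose, and Plk1 (−0.37), Sgol2a (−0.24), a shugoshin that protects centromeric cohesin, and Wapl (−0.21) fell.

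Condensin, the related SMC complex that compacts mitotic chromosomes, had 3 of 8 subunit genes lower and none higher with the combination against control, with a median log2 fold change of −0.27, where 7.28% of all tested genes were lower and 10.2% higher. Ncapd2, a HEAT-repeat subunit of condensin I, had 365 and 353 CPM in combination libraries, 366 and 362 with talazoparib, 510 and 562 with romidepsin, and 525 and 495 in control. The 4 talazoparib-treated libraries lay well below the other 4, and Ncapd2 fell with the combination at −0.51 (adjusted p = 0.00792) and with talazoparib alone at −0.49 (0.013, edgeR). Smc4, its ATPase, fell at −0.47 (0.016) with the combination and at −0.37 (0.0431) with talazoparib. In the SMC5/6 complex, which acts in DNA repair, 2 of 8 genes fell with the combination, beside the same 7.28% of all genes: Smc6 at −0.39 (0.018) and the RING-domain subunit gene Nsmce1 at −0.40 (0.033).

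Of 10 genes of other loop and boundary proteins, 2 fell with the combination and none rose, where 7.28% of all tested genes fell and 10.2% rose. Zfp143, a zinc-finger protein that binds promoters, had 21.0 and 20.9 CPM in combination libraries, 24.1 and 19.0 with talazoparib, 34.8 and 38.2 with romidepsin, and 35.8 and 32.9 in control. The 4 talazoparib-treated libraries were below all others, and Zfp143 fell at −0.71 with the combination (adjusted p = 0.0118) and at −0.68 with talazoparib (0.0199, edgeR). Top2b, the topoisomerase found at loop anchors, fell at −0.32 with the combination (0.033). Over both romidepsin arms the counts that fell were 5 of 8 in the cohesin and CTCF genes other than Stag1, 4 of 19 in the regulators, 4 of 8 in condensin, 3 of 8 in SMC5/6 and 4 of 10 in the loop partners, with medians of −0.25, −0.03, −0.26, −0.05 and −0.16 in that order, where 13.7% of all tested genes fell. The median of condensin was thus as low as that of the cohesin and CTCF genes.

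**Figure D4:**
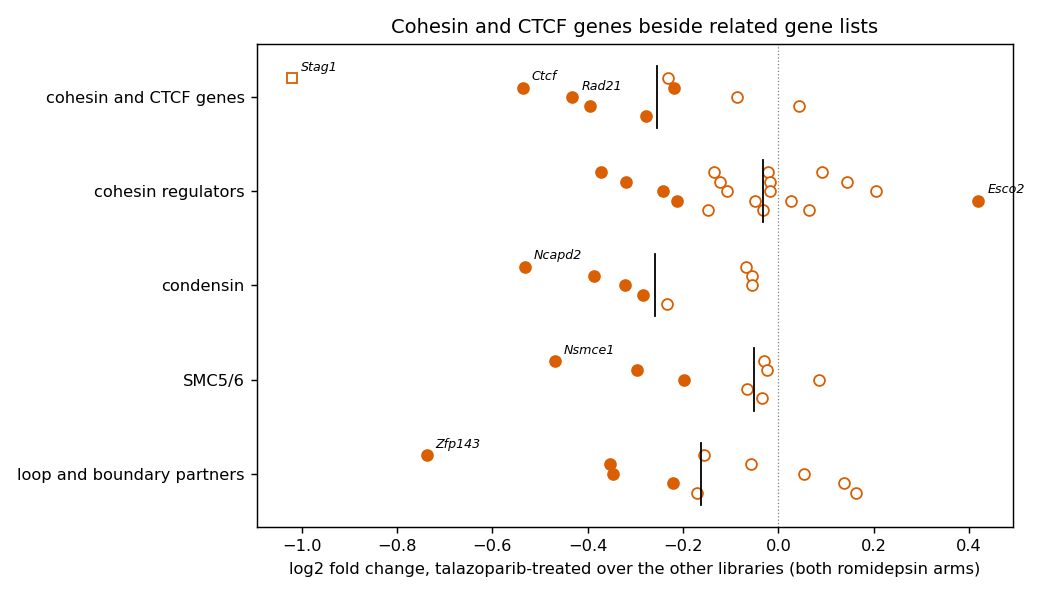
Log2 fold change of talazoparib-treated over the other libraries, the mean of both romidepsin arms (horizontal axis, edgeR), for the cohesin and CTCF genes and 4 related lists (points; filled, adjusted p under 0.05; square, Stag1, no test), with the median of the tested genes of each list (line). Stag1 lies lowest at −1.02, followed by Zfp143 and Ctcf, and Esco2 is the one filled point above 0.

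The authors' deposited table heads its test statistic LR and does not spell out the test. In it, Ctcf had a signed linear fold change of −1.54 for the combination against control (adjusted p = 0.000377), where minus marks a fall. The authors' deposited table gave Ctcf −1.49 for talazoparib against control (adjusted p = 0.00171). For the combination against control the authors' deposited table gave Pds5a −1.504 (adjusted p = 0.00565) and Rad21 −1.40 (0.0393). In the authors' deposited table Stag2 (0.0927) and Smc3 (0.101) did not pass in that comparison.

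Total counts per library ran from 28419156 to 38913292, and the pairs of replicates correlated at 0.984 to 0.991 over genes. All 8 T-cell markers looked for were listed, with a summed level of 2918 to 2974 CPM in combination libraries, 2976 to 2987 with talazoparib, 3235 to 3294 with romidepsin, and 3141 to 3368 in control. Several markers of other cell types were higher where talazoparib was given. The 3 of 6 myeloid markers listed summed to 49.3 to 52.2 CPM in combination libraries, 38.0 to 44.3 with talazoparib, 21.2 to 24.4 with romidepsin, and 15.1 to 17.3 in control. The 3 of 5 fibroblast markers listed summed to 128 to 138 CPM in combination libraries, 99.8 to 159 with talazoparib, 70.0 to 74.4 with romidepsin, and 63.8 to 68.4 in control. That sum was mostly Pdgfrb and Pdgfra. Col1a1 averaged 2.57 CPM in the combination, 1.52 with talazoparib, 2.55 with romidepsin and 1.52 in control. The 1 of 5 B-cell markers listed, Cd79b, had 9.84 to 12.3 CPM in combination libraries, 9.01 to 9.83 with talazoparib, 4.86 to 5.49 with romidepsin, and 4.15 to 4.55 in control, and the 2 of 5 erythroid markers listed, Klf1 and Epor, summed to 7.13 to 7.58 CPM in combination libraries, 6.37 to 6.90 with talazoparib, 4.75 to 5.52 with romidepsin, and 4.74 to 5.75 in control. Epor, the erythropoietin receptor gene, rose over both arms at a log2 fold change of 0.44 (adjusted p = 0.0103, edgeR). Klf1 was not called there. It averaged 0.39 CPM in the combination, 0.74 with talazoparib, 0.42 with romidepsin and 0.52 in control, so the erythroid sum was mostly Epor. The defining genes Cd79a, Ms4a1, Pax5, Csf1r, Adgre1, Fcgr3, Col1a2, Dcn, Hbb-bs and Hba-a1 are not among the listed genes. All 12260 listed genes have a count in every library, so a gene that is not listed may still be expressed in some libraries. The ribosomal precursor Rn45s took 0.172% to 0.183% of the reads in combination libraries, 0.394% to 0.520% with talazoparib, 0.139% to 0.235% with romidepsin, and 0.135% to 0.173% in control, and the proliferation marker Mki67 fell by 0.33 on the log2 scale over both arms. The part of these in the changes of the cohesin and CTCF genes was not tested. In bulk RNA, fewer cells that express a gene and less of its RNA per cell cannot be told apart.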

How the data were processed

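RNA of MBL2 cells was sequenced 24 h after treatment, with 2 libraries per group. Per the labels' protocols, RNA was extracted with TRIzol, treated with DNase and made into TruSeq Stranded mRNA libraries of 200 to 400 bp fragments. The submitters' processing notes name mm10, HISAT2 and StringTie, with no versions or settings. The authors' table holds, per the file headers, raw counts for each gene, FPKM values, values on a log2 scale, signed linear fold changes, a test statistic (a score, used nowhere here) and p-values. The authors' log2 values entered no result here.

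Counts were the basis of every test: filterByExpr left 11934 of 12260 genes, TMM gave factors of 0.954 to 1.04, and edgeR 4.0.16 fitted 1 term per group over all 8 libraries (4 residual degrees of freedom, biological coefficient of variation 12.9%). Rose and fell mean an adjusted p (Benjamini-Hochberg, all tested genes) under 0.05, and 95% intervals come from the same fit. FPKM served for levels between genes, for shares, sums and ratios of 2 genes and, in limma 3.58.1 with a pseudocount of 1 or 0.1, as an alternative. DESeq2 1.42.0, other scalings, no filter, fits of the compared groups alone, the replicate block and leaving out each library were further alternatives. The scripts were tested on simulated data. All 9 gene IDs were matched to the annotation (GENCODE, GRCm38), and 6 genes to the RefSeq promoter table. The genes and lists were chosen with earlier results of these data known. All 9 members are named; of the other lists, the 2 with the smallest p in each direction past the threshold, and any cohesin regulator past it, were named in the comparisons described, except for items that are not reported here. Replicate numbers were not taken as pairs, since deviations of same-numbered libraries correlated at −0.316 to 0.271. No 2 libraries of a group agreed within sampling noise (chi-square per degree of freedom 20.5 to 53.8).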

Additional observations from a re-analysis of the deposited data

How the results depend on the processing

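Of the tested calls, Ctcf fell in all alternatives in the combination against control and over both romidepsin arms, and Smc3 over both arms kept its call in every single omission (adjusted p up to 0.0436) but not in the limma fits (0.0546 and 0.0547). Each of the other calls of the cohesin and CTCF genes was lost in at least 1 omission, as given above. The calls of the related lists and of the markers were not followed through the alternatives. The number of the 8 genes called in the combination against control was 5; it was 2 with upper-quartile scaling, 2 with limma on log2(FPKM + 1) and on log2(FPKM + 0.1), 3 with the replicate block, and 1 to 5 in omissions of one library at a time. For the combination against romidepsin it was 2; DESeq2-style size factors, upper-quartile scaling, both limma fits and no filter each gave 1, removal of the transcript length trend (chosen after seeing the data) gave 4, and omissions 0 to 3. For talazoparib against control it was 1; DESeq2 gave 2, the length trend 3, and omissions 0 to 2. For talazoparib against romidepsin it was 2 of 9; both limma fits gave 1, the compared groups alone 0, and omissions 0 to 3. Over both romidepsin arms it was 5; limma gave 2 on log2(FPKM + 1) and 3 on log2(FPKM + 0.1), and omissions 2 to 5. The number of all 11934 tested genes called as lower changed with the setting too. In the combination against control it was 869. Upper-quartile scaling gave 575, and limma gave 419 on log2(FPKM + 1) and 436 on log2(FPKM + 0.1). For the combination against romidepsin it was 561, with 376, 276 and 273 in that order. The cause of these changes was not tested.

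Over all genes, talazoparib against control called 1321, with 342 in the compared groups alone, 860 with the replicate block and 142 to 1529 in omissions. Talazoparib against romidepsin called 1051, with 1616 by DESeq2, 76 in the compared groups alone, 700 with the block and 159 to 1773 in omissions. Omissions gave 306 to 2698 for the combination against control (2091), 156 to 1998 against romidepsin (1397) and 1936 to 4031 over both arms (3605). Romidepsin against control called 3, with 8 by DESeq2, 0 with the block and 0 to 10 in omissions. The combination against talazoparib called 3, with 27 by DESeq2 and 0 to 9 in omissions. The interaction called 2, with 7 by DESeq2, 1 with the block and 1 to 8 in omissions. In fits with one library left out, the lone library of its group was assumed to vary like the others. Beyond the number in the label, how same-numbered libraries relate is not known here. Why calls were lost under the block was not tested.

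The share of calls that were higher was 58.1% for talazoparib against control, 58.4% for the combination against control, 59.8% against romidepsin, 59.3% for talazoparib against romidepsin and 54.8% over both arms. Limma on log2(FPKM + 1) gave 76.7%, 79.6%, 82.2%, 77.6% and 75.2% in that order, and upper-quartile scaling 68.4%, 71.5% and 72.3% for the first 3. On log2(FPKM + 0.1) the median of all genes stood at 0.102 for the combination against control, and relative to it Ctcf was at −0.62.

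Values near 0 changed sign. Nipbl with talazoparib against control was at 0.0294 with upper-quartile scaling and 0.0792 and 0.0816 in the limma fits on log2(FPKM + 1) and log2(FPKM + 0.1), and ran from −0.0436 to 0.0222 in omissions. Over both arms Nipbl was at 0.00567 and 0.00555 in these limma fits and −0.185 to 0.000439 in omissions. For the combination against romidepsin Nipbl ran from −0.362 to 0.00845 in omissions, and for talazoparib against romidepsin it was at −0.0300 with the length trend removed. Smc1a with the combination against control was at −0.000423 with that trend removed and −0.0275 to 0.041 in omissions. Rad21 with romidepsin against control ran from −0.0740 to 0.0992 in omissions. Stag2 for talazoparib against romidepsin was at 0.00190 and 0.00196 in the limma fits, and Pds5b there ran from −0.267 to 0.0110 in omissions. For the combination against talazoparib, omissions gave −0.0904 to 0.0130 for Smc3, −0.282 to 0.0584 for Rad21 and −0.217 to 0.0607 for Pds5b. The planned FPKM version of each level was not run, since its unit differs. With 2 libraries per group, differences within the intervals given were not detectable.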
